A study of Rattus norvegicus with 30 samples.

Results

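The proteasome is the particle that degrades ubiquitin-tagged proteins, and the transcripts of its subunits are described here in primary rat hepatocytes exposed to acetaminophen. Genes were taken by symbol: every gene whose symbol begins with Psma, Psmb, Psmc, Psmd or Psme, without the inducible catalytic subunits Psmb8, Psmb9 and Psmb10. Of 91 such symbols in the rat annotation, 38 had a probe set of their own on the array, 3 had only probe sets shared with other genes and 50, among them pseudogenes and paralogues, had none named for them. All 38 measured genes were among the 8531 genes tested, of 14217 named on the array. They comprised 13 subunits of the 20S core (7 α and 6 β), 17 subunits of the 19S cap (6 ATPases, 3 other subunits of the base and 8 of the lid), 3 chaperones of base assembly, 3 activators, and 2 genes that are not subunits and entered by symbol only (Psmc3ip and Psme3ip1). The catalytic subunit Psmb6 and the activator Psme3 were represented only by shared probe sets and have no value here.

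Hepatocytes from male Sprague Dawley rats, bought frozen, were plated on collagen under Matrigel and dosed on day 3 of culture. The 6 groups were 1% DMSO vehicle, 500 µM acetaminophen and 5000 µM acetaminophen, each harvested 24 h and 48 h after dosing, and the dosing solutions of the compound were also made in DMSO. Each group held 5 wells with 1 Affymetrix array each, 30 arrays in all. Acetaminophen is an analgesic that hepatocytes clear by conjugation and, in part, by oxidation to a reactive quinone imine. The wells are replicate cultures of purchased cells and the labels name no donor animals, so the spread behind each p-value is that between wells, which may be technical.

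In the 26S proteasome, a barrel of stacked α and β rings (the 20S core) holds the proteolytic sites on the inner faces of β subunits, and a 19S cap recognises ubiquitin chains, removes them, and unfolds the substrate. The base of the cap contains the ring of ATPases encoded by Psmc1 to Psmc6, and the lid carries the deubiquitinase Psmd14. When proteasome capacity is short, the transcription factor NFE2L1 is known to raise the transcription of core and cap genes together through antioxidant response elements. Hepatocytes rely on the system for the turnover of cytochrome P450 enzymes and of damaged or adducted proteins.

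Because core and cap genes can be induced together through such elements, their letters were looked up in the RefSeq promoter windows (build GRCr8, 250 bases before to 50 after the annotated start). A window was found for 34 of the 38 genes. The letters TGACNNNGC, the one motif searched and on both strands, occurred in 7 of the 34 (20.6%) and in 4038 of all 33469 windows (12.1%). A match describes letters and not a bound site. The 7 genes with a match are shown, and a link between a match and a response was not tested. Each line gives bases of the gene's own strand with the 9 matching bases in capitals, and GCNNNGTCA is the same motif read on the opposite strand.
Psma3, α ring, chr6:95219727-95219755 (+): tctgtggcctGCCGGGTCAgcaccatgag
Psmb2, β ring, chr5:144254980-144255008 (+): cccgcgccaaTGACCGGGCggtcgcatat
Psmb5, β ring, catalytic, chr15:32047421-32047449 (-): cgtgaagctgTGACGTCGCggcgttgccc
Psmd1, base, chr9:94157796-94157824 (+): accagatctaTGACCTCGCgagaattata
Psmd3, lid, chr10:84139941-84139969 (+): gtttgcagctGCTCGGTCAtcgtgcggcc
Psmd9, base chaperone, chr12:39018323-39018351 (-): gagtttccggTGACCTCGCcccacctcca
Psme4, activator, chr14:108706578-108706606 (+): ggagaaagccGCTGGGTCAcctcctcgcc
The match of Psmd3 lies past the annotated start of its window, and Psmd1 and Psmd9 each have a second match that is not printed. The start of a window is not always that of the RefSeq gene span. The span of Psma3 begins at 95219714, before its printed bases. That of Psmd9, on the minus strand, begins at 39018340, within its printed bases. The 7 genes did not move as a group: at 500 µM and 48 h, Psmd1, Psmd3 and Psme4 were called higher, Psma3, Psmb2 and Psmd9 lower, and Psmb5 was not called.

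Signals are MAS5 intensities, the log2 change is the difference of group means of log2 signal with its standard error, and the word called stands for an adjusted p (limma, Benjamini-Hochberg over the 8531 genes) below 0.05, with n = 5 arrays per group throughout. Levels of different genes come from different probes and are not compared. In bulk RNA, fewer cells of a type and less RNA per cell cannot be told apart. All 10 hepatocyte markers lay above the dimmest tested signal, against 2 of 7 Kupffer cell and leukocyte markers measured, 2 of 8 for stellate cells and fibroblasts, 1 of 5 for sinusoidal endothelium and 1 of 4 for cholangiocytes, with Adgre1 at a mean signal of 34.1 and Krt7 at 13.4. The summed Kupffer cell and leukocyte markers, most of it Cd14, ran from 12428 to 15896 at 5000 µM and 24 h against 16918 to 22256 in vehicle, and from 14066 to 16136 at 5000 µM and 48 h against 17234 to 20116 in vehicle. The cholangiocyte sum, most of it Epcam, was 13094 to 14443 in vehicle at 48 h and 9156 to 9563 in vehicle at 24 h. The part of these markers in the results was not tested.

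RNA quality differed between groups, and one measure of it is given beside the counts below. It is the log2 ratio of the β-actin control probe set near the 3' end to the one near the 5' end, which is higher where the labelled RNA is shorter. The 30 arrays fell to either side of a gap between 1.54 and 1.74, with 12 above it. All 5 arrays of 500 µM at 48 h lay above the gap (mean 1.86 ± 0.119 SD), against none of the 5 vehicle arrays at 48 h (1.24 ± 0.105), a difference of 0.617 with an exact two-sided permutation p of 0.007937, the smallest that 5 against 5 arrays can give (adjusted p = 0.0185 over 7 pairs). The means at 5000 µM were 1.37 ± 0.22 at 24 h, against 1.78 ± 0.238 in vehicle (exact permutation p = 0.0476, adjusted 0.0833), and 1.21 ± 0.0506 at 48 h, against 1.24 in vehicle (exact permutation p = 0.579). At 500 µM and 24 h the mean was 1.61 ± 0.329, against 1.78 in vehicle (exact permutation p = 0.413). A second measure, the same ratio of the GAPDH control probe sets, also differed at 500 µM and 48 h from vehicle (by 0.153), between 5000 and 500 µM at 48 h (-0.173) and between vehicle at 48 h and 24 h (-0.124), each with an exact permutation p of 0.007937 (adjusted 0.0185). Its difference was -0.112 at 5000 µM and 24 h (exact permutation p = 0.0397, adjusted 0.0694) and -0.0199 at 5000 µM and 48 h (exact permutation p = 0.325), and it was not fitted as a covariate. So 5000 µM against vehicle at 48 h is the comparison of dose with vehicle in which both ratios were closest, and at 500 µM and 48 h the dose and the ratio cannot be told apart.

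At 5000 µM and 24 h, the change that stood farthest out was a rise of one base chaperone, Psmd10, to 1.74-fold of vehicle, while the called subunits of the particle itself changed by 0.32 or less on the log2 scale in either direction. Of the 38 genes, 8 were called higher and 2 lower (26.3%, against 38.1% of all genes tested, 18.6% higher and 19.6% lower), and their median log2 change was 0.05, against -0.0027 over all genes. The higher ones were Psmd10, Psmc3ip, the core subunits Psma2, Psma5, Psmb1 and Psmb3, and the cap subunits Psmd4 and Psmd13. The lower ones were the α subunit Psma3 and the lid subunit Psmd7. Genes called without overlap between the 2 groups of arrays were 5 of the 38 (13.2%), against 23.2% of all genes tested. With arrays centred on their medians 2 were higher (Psmd10 and Psmc3ip) and 2 lower (Psma3 and Psmd7), against 29.9% of all genes. Adding the actin ratio to the fit kept those same 4 of the 10 calls, while the called core and cap rises were all lost. That fit called 3 genes higher and 5 lower, against 30.5% of all genes, since Psme4 was called higher and Psmb2, Psmd14 and Psme1 lower in addition. With the side of the gap as a block instead, 7 of the 10 calls were kept, the rises of Psma2, Psmb3 and Psmd4 among them. The block fit called 6 genes higher and 3 lower, against 3000 of the 8531 genes tested.

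Psmd10 encodes gankyrin, an ankyrin-repeat protein that holds the ATPase Psmc4 during assembly of the base and leaves before the particle is finished, and that in human liver is known as an oncoprotein binding RB1 and MDM2. Its signals were 3624, 3365, 3687, 3300 and 3507 at 5000 µM and 24 h, against 1898, 2093, 2067, 2143 and 1855 in vehicle. No array of the 2 groups overlapped, and the log2 change was 0.80 ± 0.07 (adjusted p = 1.57e-10, limma). At 48 h the signals were 3345, 3480, 3369, 3375 and 3552 at 5000 µM, against 2820, 2224, 2320, 2746 and 2589 in vehicle, again without overlap (log2 change 0.44 ± 0.07, adjusted p = 1.27e-05). The treated wells had about the same level at both times, and the vehicle wells were higher at 48 h than at 24 h (log2 change 0.33 ± 0.07, adjusted p = 0.000779), so the effect of 5000 µM was smaller at 48 h (difference of effects -0.36 ± 0.10, adjusted p = 0.0127).

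Among 24 h arrays above the gap the log2 difference of Psmd10 was 0.85, with 1 array at 5000 µM (ratio 1.76) and 3 in vehicle (1.90 to 1.99). Among those below it the difference was 0.80, with 4 arrays at 5000 µM (1.21 to 1.31) and 2 in vehicle (1.49 and 1.54). The ratio was lower at 5000 µM on either side of the gap, so these pairs are not matched for it. Fitted with the ratio as a covariate, the log2 change was 0.75 ± 0.08 at 24 h (adjusted p = 2.88e-08) and 0.43 ± 0.07 at 48 h (adjusted p = 9.42e-06). Psmd10 has 1 probe set on the array, so no second set of probes bears on it.

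The 250 bases upstream of the annotated start of Psmd10, chrX:109453606-109453855 on the minus strand in build GRCr8, are printed. Psmd10 was chosen for the largest log2 change from vehicle among members at the higher dose, at both times, on chosen probe sets. It did not follow dose at the later time, where the lower dose lay below vehicle. No part is in capitals because the letters TGACNNNGC do not occur in the 300-base window of Psmd10.
Psmd10, upstream: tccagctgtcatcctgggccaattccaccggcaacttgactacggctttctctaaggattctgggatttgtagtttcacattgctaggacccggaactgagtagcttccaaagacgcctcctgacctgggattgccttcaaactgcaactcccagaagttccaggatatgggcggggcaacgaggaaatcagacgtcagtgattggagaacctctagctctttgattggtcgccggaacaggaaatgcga
No match says only that these letters are not in the window.

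**Figure D1:**
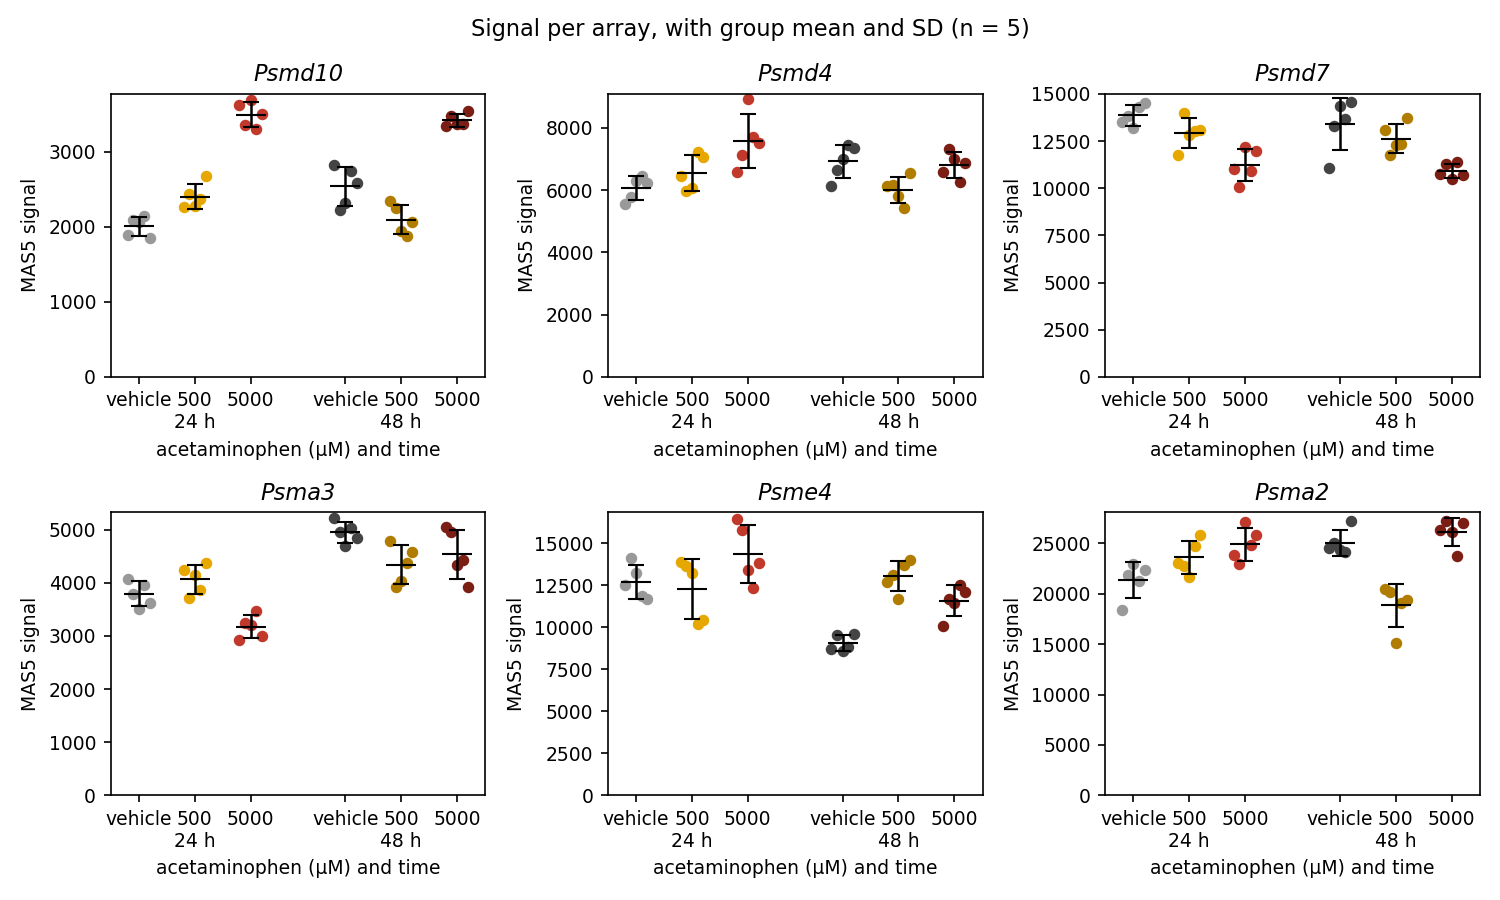
MAS5 signal (y axis, from 0) of 6 genes by dose and time (x axis): points are single arrays, horizontal bars the mean and error bars the SD of 5 arrays. Psmd10 lies at 3300 to 3687 in all wells given 5000 µM, above every other well, and Psma2 is lowest at 500 µM and 48 h.

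Psmd4, the cap subunit that acts as a receptor for ubiquitin chains, had signals of 6593, 7110, 8926, 7712 and 7506 at 5000 µM and 24 h, against 5541, 5769, 6303, 6444 and 6223 in vehicle. The groups did not overlap and the log2 change was 0.32 ± 0.07 (adjusted p = 0.000784). It was 0.17 ± 0.07 with the ratio as a covariate (adjusted p = 0.0757), it was not called with arrays centred, and at 48 h there was no call (-0.02 ± 0.07). The other rise without overlap was that of Psmc3ip, a meiotic recombination protein and not a proteasome subunit, with 935, 1234, 1091, 1426 and 1047 at 5000 µM, against 841, 617, 629, 741 and 723 in vehicle (log2 change 0.69 ± 0.16, adjusted p = 0.000828).

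Psma3, an α-ring subunit, was lower in every well given 5000 µM for 24 h: 2934, 3253, 3216, 3468 and 3005, against 4078, 3794, 3510, 3963 and 3617 in vehicle (log2 change -0.26 ± 0.07, adjusted p = 0.00372). It was called lower with the ratio as a covariate as well (-0.28 ± 0.08, adjusted p = 0.0101). It went the opposite way to the other called core subunits, which rose by 0.17 to 0.23 on the log2 scale. Psma3 has 1 probe set of its own, and 1 more that it shares with Psma3l was not used. No second set of probes was thus read for it. At 48 h Psma3 averaged 4536 ± 468 at 5000 µM and 4949 ± 198 in vehicle, which was not called (adjusted p = 0.158).

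Psmd7, the lid subunit that pairs with the deubiquitinase Psmd14, fell at both times. Its signals at 24 h were 11022, 10061, 12202, 10885 and 11980 at 5000 µM, against 13494, 13832, 13171, 14283 and 14491 in vehicle (log2 change -0.31 ± 0.06, adjusted p = 0.000248). At 48 h they were 10736, 11283, 10500, 11367 and 10721 at 5000 µM, against 11087, 13280, 14381, 13675 and 14544 in vehicle, where 1 vehicle well lay among the treated ones (-0.29 ± 0.06, adjusted p = 0.000571). In the fit with the covariate the changes were -0.38 ± 0.07 and -0.29 ± 0.06, and both were called. A second, dimmer probe set of Psmd7 gave 0.04 at 24 h and -0.22 at 48 h, neither called, so its probe sets disagree at 24 h.

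At 5000 µM and 48 h, where the RNA quality ratios of dose and vehicle were closest, 3 genes were called higher and 4 lower (18.4%, against 32.6% of all genes tested, 14.6% higher and 18% lower), and the 20S core did not appear among them. None of the 13 core subunits was called in limma, none had an unadjusted p under 0.05, and their log2 changes ran from -0.13 to 0.06 with a median of -0.0043, against -0.01 over all genes. The rises were Psmd10, the activator Psme4 (PA200, a large cap substitute) at 0.35 ± 0.08 (adjusted p = 0.0014) and the base scaffold Psmd1 at 0.23 ± 0.08 (adjusted p = 0.0224). The falls were Psmd7, the ATPase Psmc6 at -0.27 ± 0.08 (adjusted p = 0.0103), the base chaperone Psmd5 at -0.27 ± 0.07 (adjusted p = 0.00389) and the deubiquitinase Psmd14 at -0.19 ± 0.07 (adjusted p = 0.0448). Psmc6 rests on its chosen probe set: the next, of nearly the same brightness, gave -0.05 and a dim one -0.01, neither called. The 2 dimmer probe sets of Psmd14 gave -0.22 and -0.19, neither called.

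Psme4 had signals of 10100, 11704, 11458, 12539 and 12101 at 5000 µM and 48 h, against 8706, 9521, 8613, 8805 and 9623 in vehicle, without overlap. Psmd10 was the other gene called without overlap, 2 of 38 in all (5.26%), against 23.2% of all genes tested. A second probe set of Psme4 gave 0.42 (adjusted p = 0.0023 over all probe sets) and another, dim one 0.37, which was not called. In vehicle wells the chosen probe set of Psme4 changed by -0.49 from 24 h to 48 h (adjusted p = 0.00028, limma over all probe sets), so the reference moved as well. At 24 h the probe sets of Psme4 disagreed, with 0.17 on the chosen one (not called), 0.31 on the next and -0.76 on the dim one. All 7 calls at 48 h were kept with the ratio as a covariate, against 35.5% of all genes, and Psmd9 was called lower in addition (-0.18 ± 0.06, adjusted p = 0.0272). With arrays centred on their medians 2 genes were called higher (Psmd10 and Psme4) and 2 lower (Psmd7 and Psmc6), against 21.9% of all genes.

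**Figure D2:**
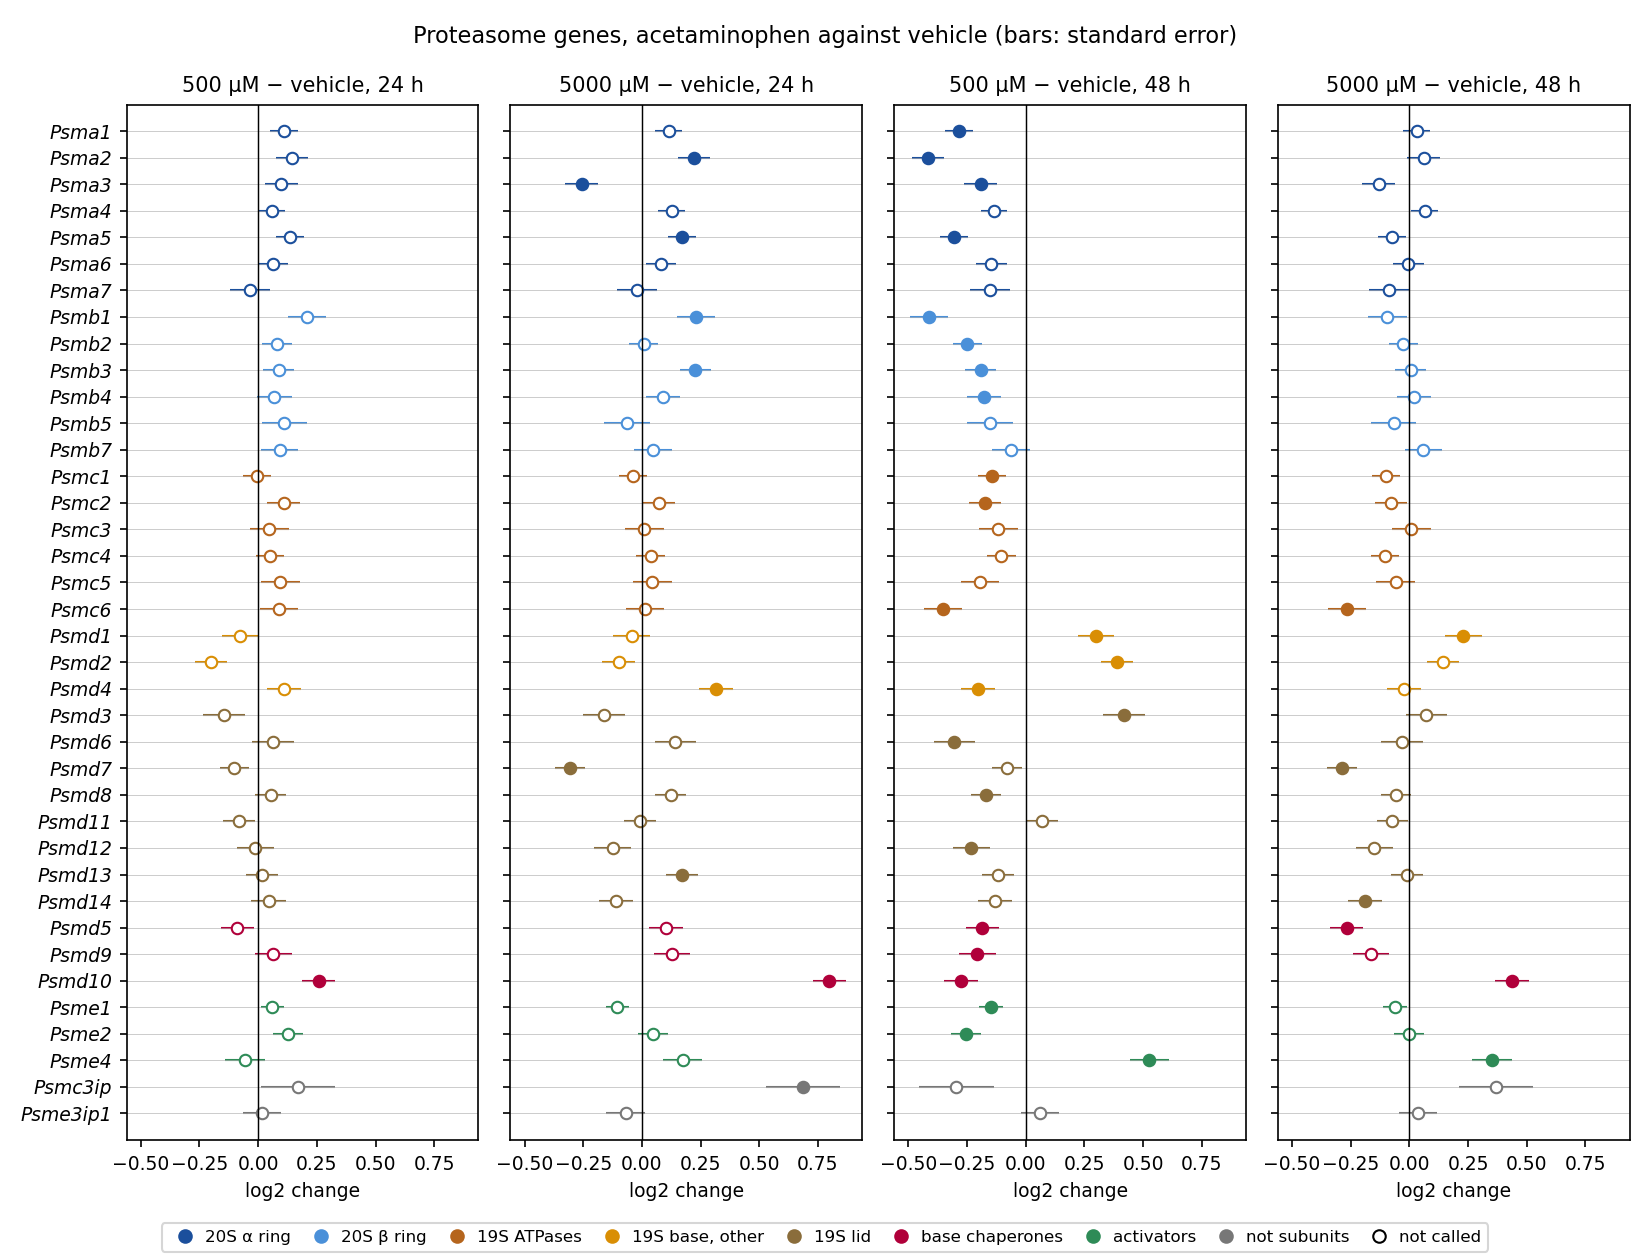
Log2 change (x axis, with its standard error) of each of the 38 genes (y axis, grouped by role) for both doses against vehicle at both times, with called genes filled. Psmd10 is the point farthest to the right at 5000 µM, and at 500 µM and 48 h every core subunit lies left of 0.

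Only 1 gene of the 38 was called at 500 µM and 24 h, again Psmd10 (2.63%, against 2.86% of all genes tested, 1.65% higher and 1.21% lower). Its signals were 2263, 2433, 2276, 2376 and 2677 at 500 µM, against 1898, 2093, 2067, 2143 and 1855 in vehicle, without overlap, and the log2 change was 0.26 ± 0.07 (adjusted p = 0.0419). The call was at the edge of the threshold: it was lost when any one of 7 of the 10 wells was left out (3 of 500 µM and 4 of vehicle, adjusted p from 0.0527 to 0.162) and with the ratio as a covariate (0.24 ± 0.07, adjusted p = 0.078), a fit that called none of the 38 genes (5 at an unadjusted p under 0.05), against 2.17% of all genes. Over all genes tested, 2.24% were called without overlap. At 24 h the signals of Psmd10 thus averaged 2011 ± 127 in vehicle, 2405 ± 168 at 500 µM and 3497 ± 165 at 5000 µM (SD, n = 5), and 5000 µM was above 500 µM by 0.54 ± 0.07 (adjusted p = 4.92e-07). None of the 13 core and 17 cap subunits was called at 500 µM and 24 h, with 3 and 1 at an unadjusted p under 0.05.

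The comparison with vehicle that called the most members was 500 µM at 48 h: 4 genes were called higher and 20 lower (63.2%, against 42.6% of all genes tested, 24.0% higher and 18.6% lower). With arrays centred on their medians 4 were called higher and 3 lower, against 32.3% of all genes. After quantile normalization 4 were called higher and 19 lower, against 3583 of the 8531 genes tested. The excess of falls over rises was thus lost with arrays centred and kept after quantile normalization. The median log2 change of the 38 genes was -0.17, against 0.01 over all genes. Genes called without overlap were 14 of the 38 (36.8%), against 26.4% of all genes tested. These are the wells whose 3'/5' ratios all lay above the gap, while those of vehicle all lay below it. Once the ratio entered as a covariate, none of the 38 was called in limma (6 at an unadjusted p under 0.05), against 3.97% of all genes. With the side of the gap as a block 2 were called, Psma2 and Psmd2, against 5.67% of all genes. The dose and the ratio overlap so closely here that a call lost in these fits does not show that a gene did not differ.

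The falls at 500 µM and 48 h included 8 of the 13 core subunits. Psma2, of the α ring, had 20496, 20212, 15163, 19053 and 19372 at 500 µM, against 24498, 25083, 24327, 24129 and 27180 in vehicle, without overlap (log2 change -0.42 ± 0.07, adjusted p = 2.85e-05). Psmb1, a non-catalytic β subunit, had 31015, 34774, 28036, 28864 and 29386, against 40009, 42706, 41532, 36786 and 40706 in vehicle, also without overlap (-0.41 ± 0.08, adjusted p = 0.000219). Psma5 fell by 0.31 ± 0.06 and Psma1 by 0.29 ± 0.06, and the other called core subunits (Psma3, Psmb2, Psmb3 and Psmb4) fell by 0.18 to 0.25. One well of 500 µM, replicate 3, bore on the number called: without it 13 of the 38 genes were called, 4 higher and 9 lower. It held the lowest value of Psma2 (15163).

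In the cap the 2 directions occurred together. The large base scaffolds and a lid scaffold rose: Psmd2, which docks ubiquitin-carrying shuttle proteins, had 16304, 16381, 18656, 16927 and 17433 at 500 µM, against 12580, 12468, 11700, 13840 and 15047 in vehicle (0.39 ± 0.07, adjusted p = 5.79e-05). Psmd3, of the lid, had 3440, 3877, 5283, 3866 and 3815, against 2769, 3009, 2814, 3078 and 3383 in vehicle (0.42 ± 0.09, adjusted p = 0.000453). Neither of these pairs of groups overlapped, and Psmd1 was called higher too (0.30 ± 0.08, adjusted p = 0.00276). The ATPase Psmc6 fell by 0.35 ± 0.08 (adjusted p = 0.000928), with 10767, 9673, 9643, 10263 and 9186, against 14654, 12091, 11738, 12904 and 11966 in vehicle, without overlap. Its 2 other probe sets gave -0.31 and -0.05, neither called. Psmc1, Psmc2, Psmd4, Psmd6, Psmd8 and Psmd12 also fell, by 0.15 to 0.30. Psmd7 and Psmd11 were not called on their chosen probe sets (-0.08 and 0.07). The dimmer probe set of Psmd7 gave -0.41 (adjusted p = 0.0017, limma over all probe sets). For Psmd11 the next probe set, of nearly the same brightness, gave 0.24 (adjusted p = 0.0046). A very dim one gave -1.02, not called. The count of cap subunits called thus depends on the probe set. Psmd14 on its chosen probe set changed by -0.13 ± 0.07 (not called), while its 2 dimmer probe sets gave -0.55 and -0.89 (adjusted p = 0.0033 and 0.0078 over all probe sets).

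Among the activators at 500 µM and 48 h, Psme4 had 12721, 13121, 11706, 13692 and 14035, against 8706, 9521, 8613, 8805 and 9623 in vehicle (0.53 ± 0.08, adjusted p = 1.78e-05), with no overlap. Its other probe sets gave 0.57 and 0.67. The vehicle wells had changed by -0.49 for Psme4 between 24 h and 48 h. Psme1 and Psme2, which together form the PA28 ring that opens the core, fell by 0.15 ± 0.05 and 0.25 ± 0.06. All 3 base chaperones fell: Psmd10 by 0.27 ± 0.07 (adjusted p = 0.00283), Psmd9 by 0.21 ± 0.08 and Psmd5 by 0.18 ± 0.07. Psmd10 thus stood above vehicle at 500 µM and 24 h and below vehicle at 500 µM and 48 h, and the difference between those effects was called (-0.53 ± 0.10, adjusted p = 0.000243). That difference was not called with the covariate (-0.44 ± 0.13, adjusted p = 0.123).

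**Figure D3:**
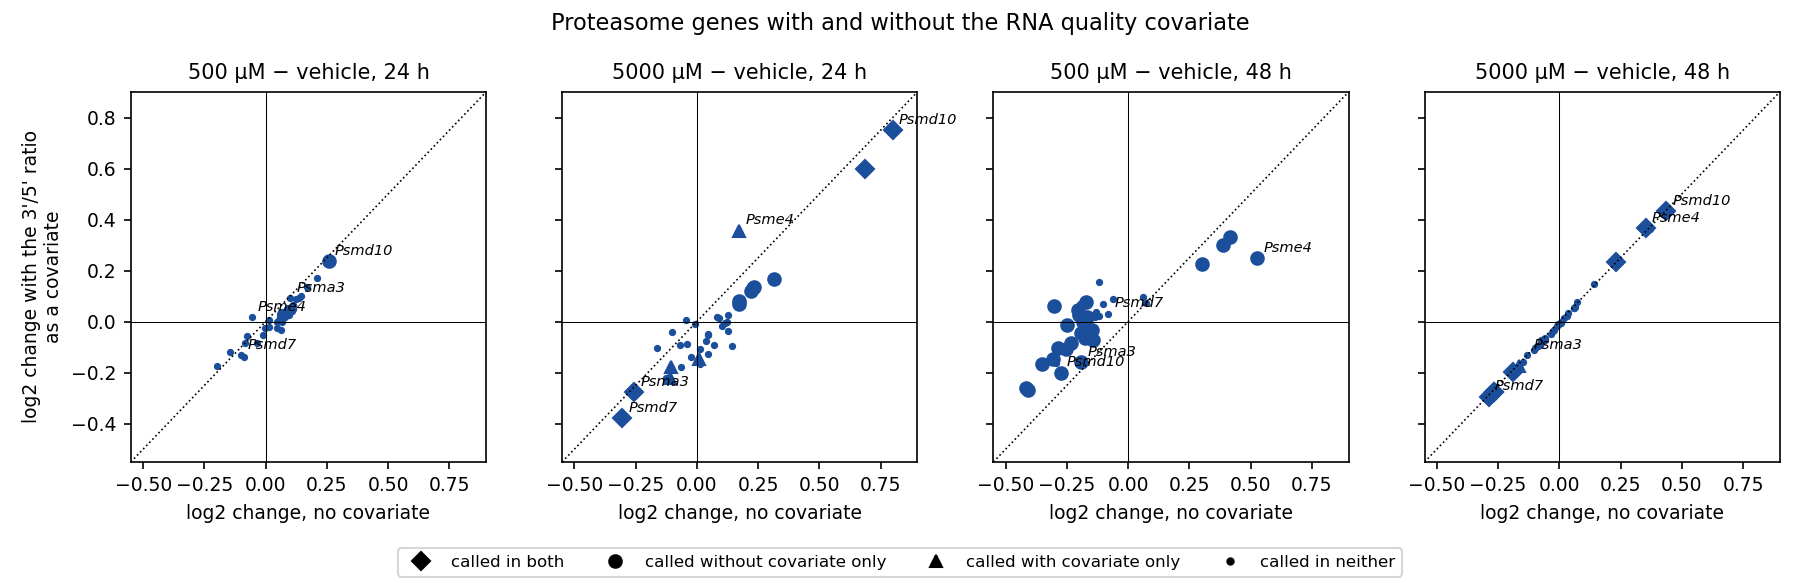
Log2 change of each of the 38 genes against vehicle without (x axis) and with (y axis) the 3'/5' ratio as a covariate, in 4 panels, with the symbol showing in which fit the gene was called and the dotted line marking equal values. At 5000 µM and 48 h the points lie on the line, and at 500 µM and 48 h most lie nearer to 0 on the y axis and none was called with the covariate.

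Core and cap subunits are set side by side here by their counts in each direction and their medians. At 500 µM and 48 h all 13 core subunits lay below 0, with a median of -0.19, 8 called lower and none higher, and with arrays centred 12 of the 13 lay below 0 and 2 were called. Of the 17 cap subunits, each on its chosen probe set, 13 lay below 0, with a median of -0.13. Of these 17, 7 were called lower and 3 higher, and with arrays centred 1 lower and 3 higher. In vehicle wells at 48 h against 24 h all 13 core subunits lay above 0, with a median of 0.19, 7 called higher and none lower (12 of 13 above 0 and 2 called with arrays centred), and 12 of the 17 cap subunits did, with a median of 0.11, 3 called in each direction. At 5000 µM and 24 h the core had 4 called higher and 1 lower with a median of 0.09, and the cap 2 higher and 1 lower with a median of 0.01. The medians at 500 µM and 24 h were 0.09 and 0.05. The medians over all genes in these comparisons lay between -0.02 and 0.01. Of all genes tested, 24.0% were called higher and 18.6% lower at 500 µM and 48 h. The shares were 13.4% higher and 19% lower in vehicle wells at 48 h against 24 h. At 5000 µM and 24 h they were 18.6% higher and 19.6% lower. With arrays centred, 32.3% of all genes were called at 500 µM and 48 h, and 23.8% in vehicle wells over time, in either direction.

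The same can be followed array by array, as the median log2 deviation of the core or cap genes from their means over the 30 arrays. For the core at 24 h the mean was -0.0937 ± 0.104 (vehicle), 0.0108 ± 0.102 (500 µM) and 0.0271 ± 0.1 (5000 µM), and at 48 h it was 0.106 ± 0.061 (vehicle), -0.126 ± 0.0561 (500 µM) and 0.0826 ± 0.0923 (5000 µM), each with its SD (n = 5). For the cap the 6 means lay between -0.0417 ± 0.0353, at 500 µM and 48 h, and 0.054 ± 0.0843, in vehicle at 48 h. The core at 500 µM and 48 h ran from -0.214 to -0.0628, below all 5 vehicle arrays at 48 h, which ran from 0.0603 to 0.196. Of the 12 arrays above the gap in the ratio, 11 had a core median below 0. Core minus cap was -0.0846 ± 0.0776 at 500 µM and 48 h, 0.088 ± 0.076 at 5000 µM and 48 h, and 0.0518 ± 0.0734 in vehicle at 48 h, with overlapping wells at 5000 µM and in vehicle. The difference between core and cap, and the part of the ratio in it, was not tested.

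**Figure D4:**
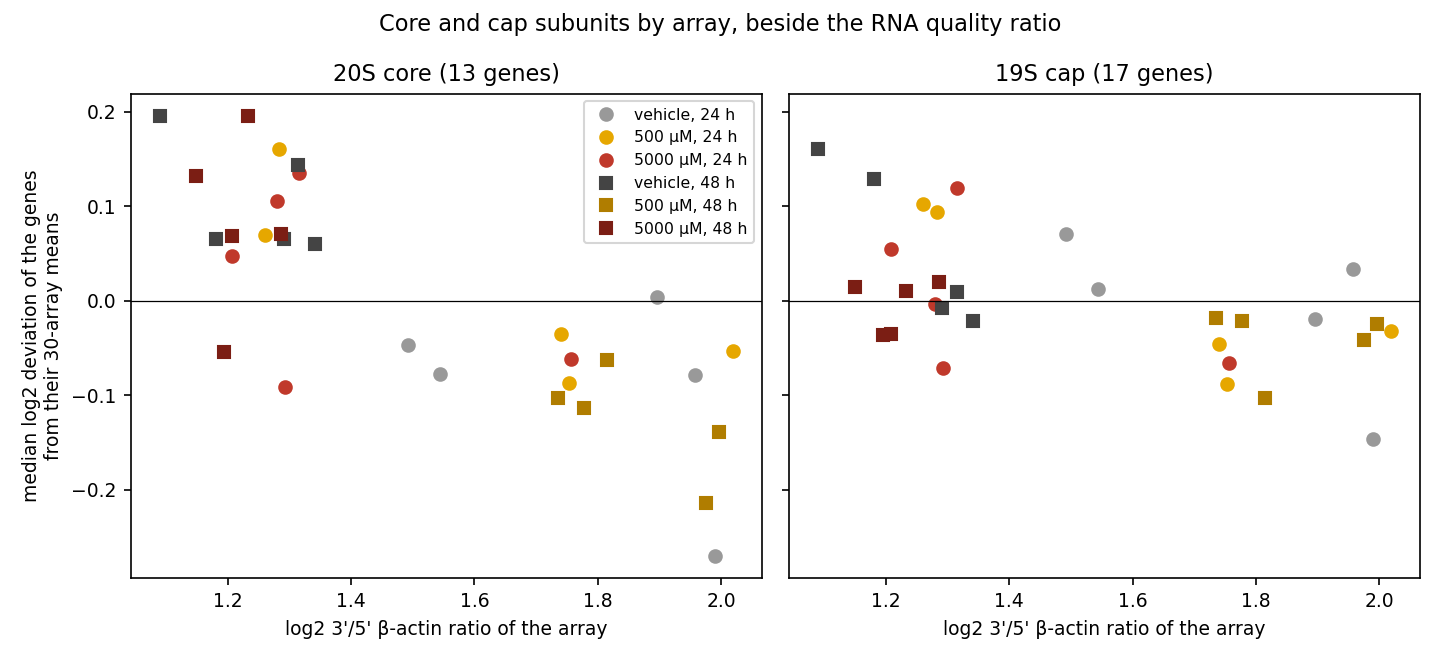
Median log2 deviation of the 13 core genes (left) and 17 cap genes (right) from their 30-array means (y axis) against the log2 3'/5' β-actin ratio of the same array (x axis), 1 point per array, coloured by group, with circles for 24 h and squares for 48 h. The arrays of 500 µM at 48 h all lie at ratios of 1.74 or more and those of vehicle at 48 h at 1.34 or less, and the core values are mostly below 0 at the high ratios.

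Comparing the doses directly at 48 h, 5000 µM stood above 500 µM for 13 genes and below it for 3 (47.6% of all genes tested were called, 19.4% higher and 28.2% lower), and with arrays centred for 4 and 3 (40.7% of all genes). All 13 core subunits lay above 0, 8 of them called, with a median of 0.20 (10 above 0 and 2 called with arrays centred), and the cap had 2 called higher and 3 lower. Psmd10 was higher by 0.71 ± 0.07 (adjusted p = 2.2e-09), Psma2 by 0.48 ± 0.07, Psma1 by 0.32 ± 0.06 and Psmd6 by 0.27 ± 0.09, and Psmd3 was lower by 0.35 ± 0.09, Psmd2 by 0.25 ± 0.07 and Psmd7 by 0.21 ± 0.06. The 3'/5' ratios of the 2 groups did not overlap, with 5000 µM lower by 0.646 (exact permutation p = 0.007937, adjusted 0.0185). The fit with the covariate called 4 (20.9% of all genes), of which Psma2, Psmd10 and Psmd7 were among the 16. The second, dimmer probe set of Psmd7 went the opposite way here, at 0.19 (not called). Genes called without overlap were 11 of the 38 (28.9%), against 31.9% of all genes tested. At 24 h, 5 were higher at 5000 µM than at 500 µM (Psmd10, Psmc3ip, Psmd4, Psme4 and Psmd5) and 3 lower (Psma3 at -0.36 ± 0.07, Psmd7 at -0.20 ± 0.06 and Psme1 at -0.16 ± 0.05), against 31.2% of all genes tested, 16.8% higher and 14.3% lower. Of these 8, 6 kept their call with the covariate, which called 31.9% of all genes, and 2 of the 38 (5.26%) were called without overlap, against 18.3% of all genes tested. The second probe set of Psmd7 gave 0.0032 at 24 h, which was not called. For Psme4 at 24 h the probe sets disagreed. The next one gave 0.26 (not called), and the dim one went the opposite way, at -0.50 (adjusted p = 0.04, limma over all probe sets).

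In vehicle wells, 12 genes were higher and 4 lower at 48 h than at 24 h (32.5% of all genes tested were called, 13.4% higher and 19% lower). With arrays centred on their medians 2 were higher and 3 lower (23.8% of all genes). Psmb1 was higher by 0.39 ± 0.08, Psma3 by 0.39 ± 0.07, Psmd10 by 0.33 ± 0.07 and Psme2 by 0.31 ± 0.06. Psme4 was lower by 0.49 ± 0.08, Psmd3 by 0.37 ± 0.09 and Psmd2 by 0.33 ± 0.07. The ratio was lower at 48 h in these wells by 0.532, without overlap (exact permutation p = 0.007937, adjusted 0.0185), and with it as a covariate Psma3 was the gene still called (0.36 ± 0.09, adjusted p = 0.0169), against 5.16% of all genes, so time and the ratio cannot be told apart here. Genes called without overlap were 12 of the 38 (31.6%), against 21% of all genes tested. The comparisons of a dose with vehicle at 48 h share these vehicle wells. Psma3 averaged 4949 ± 198 in vehicle at 48 h and 3792 ± 235 in vehicle at 24 h.

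The effect of 500 µM differed between 48 h and 24 h for 18 genes, 14 of them lower and 4 higher (36.6% of all genes tested were called, 14.5% lower and 22.1% higher), and with arrays centred 4 in each direction (24.7% of all genes). The farthest were Psmb1 at -0.62 ± 0.12, Psma2 at -0.56 ± 0.10, Psmd2 at 0.59 ± 0.10 and Psme4 at 0.58 ± 0.12. For 5000 µM 5 genes differed, all with the lower effect at 48 h (16.4% of all genes tested were called, 7.74% higher and 8.66% lower): Psmd5 at -0.37 ± 0.10, Psmd10 at -0.36 ± 0.10, Psmd4 at -0.34 ± 0.10, Psmb1 at -0.33 ± 0.12 and Psma5 at -0.24 ± 0.08. Neither difference had a call in limma with the covariate (6 and 3 genes at an unadjusted p under 0.05), against 0.0352% and 9.62% of all genes. With arrays centred none of the 38 differed for 5000 µM.

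By role, the catalytic subunits with a probe set of their own had no call. Psmb5, the chymotrypsin-like site, averaged 22112 ± 2355 at 5000 µM and 24 h and 23276 ± 3698 in vehicle, and 24762 ± 2121 at 5000 µM and 48 h and 25999 ± 2840 in vehicle. Psmb7, the trypsin-like site, averaged 12485 ± 1544 at 5000 µM and 24 h and 12040 ± 968 in vehicle, and 13943 ± 830 at 5000 µM and 48 h and 13370 ± 535 in vehicle. Neither was called in any of the 9 comparisons, with log2 changes in the 4 comparisons with vehicle between -0.15 ± 0.10 and 0.11 ± 0.10. The ATPases lay within 0.12 of 0 at 24 h on their chosen probe sets. None of the 6 was called there at either dose, and none had an unadjusted p under 0.05. A dim probe set of Psmc6 gave -0.41 at 5000 µM and 24 h (adjusted p = 0.0037, limma over all probe sets). Against 500 µM at 24 h it gave -0.32 (adjusted p = 0.034). The next probe set of Psmc6 gave -0.18 and -0.06 in these comparisons, neither called. All 6 ATPases lay below 0 at 500 µM and 48 h, with 3 called. The chaperones did not move as one: at 5000 µM and 48 h Psmd10 was called higher, Psmd5, which binds the ATPase Psmc2, was called lower, and Psmd9 changed by -0.16 ± 0.08 without a call.

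Other genes of the pathway were read from lists of named components. Of the 3 inducible catalytic subunits of the immunoproteasome, all fell at 5000 µM and 48 h, against 18% of all genes called lower. Psmb8 had 2756, 3112, 2829, 2638 and 2743 at 5000 µM, against 3234, 3258, 3897, 3947 and 4145 in vehicle, without overlap (log2 change -0.39 ± 0.08, adjusted p = 0.00018). Psmb9 changed by -0.37 ± 0.09 (adjusted p = 0.00177) and Psmb10 by -0.50 ± 0.13 (adjusted p = 0.00322), and both were also without overlap. The 3 calls were kept with the ratio as a covariate (-0.40, -0.38 and -0.51). All 3 were called lower at 500 µM and 48 h as well (-0.35, -0.35 and -0.42, against 18.6% of all genes), where none was called with the covariate or with arrays centred, and none at 24 h at either dose, though with the covariate Psmb8 was called lower at 5000 µM and 24 h (-0.33 ± 0.08). Both doses at 48 h are read against the same vehicle wells, which for all 3 genes averaged higher at 48 h than at 24 h. Vehicle means at 24 h and 48 h were 3281 and 3696 (Psmb8), 3625 and 4052 (Psmb9), and 1723 and 2396 (Psmb10). At 5000 µM and 48 h the means were 2816 (Psmb8), 3133 (Psmb9) and 1696 (Psmb10), the last close to vehicle at 24 h. The constitutive catalytic subunits Psmb5 and Psmb7, by comparison, changed by -0.07 ± 0.10 and 0.06 ± 0.08 at 5000 µM and 48 h. The difference between the 2 sets was not tested.

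Nfe2l1, the transcription factor of proteasome genes, had 5086, 3085, 3477, 3520 and 3458 at 5000 µM and 24 h, against 4463, 6289, 4471, 4696 and 4744 in vehicle (-0.41 ± 0.12, adjusted p = 0.0056). One well of 5000 µM lay among the vehicle wells, and it was the one 5000 µM well at 24 h above the gap in the ratio. Nfe2l1 at 500 µM and 48 h was higher by 0.72 ± 0.12 (adjusted p = 2.47e-05), and at 5000 µM and 48 h it was not called (0.20 ± 0.12). No comparison of Nfe2l1 with vehicle was called with the covariate. Ddi2, the protease that activates NFE2L1, was higher by 0.41 ± 0.07 at 5000 µM and 48 h and kept its call with the covariate (0.43 ± 0.06). Of the 5 genes of this list, 1 was called lower at 5000 µM and 24 h (19.6% of all genes were) and none with the covariate. At 500 µM and 48 h, 4 were higher (24.0% of all genes were) and none was called with the covariate, against 3.97% of all genes. In wells given 5000 µM for 48 h, 1 was called in each direction (14.6% of all genes were higher and 18% lower), with and without the covariate.

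Of the 5 assembly chaperones of the core, 4 were called lower at 500 µM and 48 h (18.6% of all genes were), Pomp among them (-0.20 ± 0.06, adjusted p = 0.00737). None of the 5 was called there with the ratio as a covariate, against 3.97% of all genes, nor with arrays centred. At 5000 µM, 1 of the 5 was higher at 24 h, and 1 was higher and 2 lower at 48 h (18.6% of all genes were higher at 24 h, 14.6% higher and 18% lower at 48 h). Psmg3 rose at both times, by 0.29 ± 0.06 and 0.21 ± 0.06, with the covariate too but not with arrays centred, and Psmg2 was lower at 48 h (-0.36 ± 0.07, adjusted p = 0.000107) in all 3 fits. Pomp was not called at 5000 µM (0.04 ± 0.06 and 0.10 ± 0.06). Among 11 cap-associated proteins, 5 were higher and 2 lower at 5000 µM and 24 h (18.6% and 19.6% of all genes were), and 2 higher and 1 lower with the covariate. At 5000 µM and 48 h, 1 was higher and 2 lower (14.6% and 18% of all genes were), and 1 higher and 3 lower with the covariate. At 500 µM and 48 h, 2 were higher and 4 lower (24.0% and 18.6% of all genes were), and none was called with the covariate, against 3.97% of all genes.

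Zfand2a, a stress-inducible protein that binds the cap, had the farthest change at 5000 µM of the pathway genes listed here. Its signals were 1918, 2182, 2150, 2164 and 1971 at 5000 µM and 48 h, against 4932, 4061, 3712, 4735 and 4019 in vehicle, without overlap (-1.04 ± 0.10, adjusted p = 2.11e-09). At 24 h it fell by 0.60 ± 0.10, and both calls were kept with the ratio as a covariate (-0.43 ± 0.11 and -1.03 ± 0.09). Zfand5, a proteasome-stimulating protein, rose by 0.43 ± 0.07 and 0.32 ± 0.07 at 5000 µM on its brightest probe set, but at 24 h the mean of its probe sets gave -0.07. Uchl5, a deubiquitinase of the cap, rose by 0.34 ± 0.06 at 5000 µM and 24 h. Akirin2, which helps import proteasomes into the nucleus, was lower by 0.95 ± 0.22 at 500 µM and 48 h (adjusted p = 0.000841) and higher at 5000 µM and 24 h (adjusted p = 0.0235), and neither was called with the covariate.

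Of 8 genes of ubiquitin activation and delivery, 1 was higher and 2 lower at 5000 µM and 24 h (18.6% and 19.6% of all genes were), and 1 in each direction with the covariate. At 500 µM and 48 h, 5 were higher and none lower (24.0% and 18.6% of all genes were), and 1 was higher with the covariate, against 3.97% of all genes. In wells given 5000 µM for 48 h, 1 was called in each direction with and without the covariate (14.6% of all genes were higher and 18% lower), and neither with arrays centred. The falls at 24 h were Nploc4, a cofactor of the segregase VCP (-0.52 ± 0.11), and Uba1, the main ubiquitin-activating enzyme (-0.43 ± 0.11), of which Nploc4 was called with the covariate (-0.33, adjusted p = 0.026). The rise was Ubqln2, a shuttle of ubiquitinated proteins, at 0.24 ± 0.07 at 24 h and 0.20 ± 0.07 at 48 h, and it was called at both times with the ratio as a covariate. Sqstm1, an autophagy receptor for ubiquitinated proteins, was lower at 5000 µM and 48 h (-0.20 ± 0.06, adjusted p = 0.017).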

How the data were processed

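RNA from 30 wells was hybridised to single-colour Affymetrix rat arrays. The authors deposited 1 intensity per probe set and array, on a linear scale; the submitters' processing notes name MAS5 and give no version of it. Trimmed means (2%) of 1500.55 to 1500.66 per array show that the arrays had been scaled alike before deposit. The number of arrays, 5 per group, limits the precision. Of 31099 probe sets, 57 controls were left out, 20826 had 1 symbol, 436 several and 9780 none. Symbols were updated through Entrez identifiers (20758 matched), and none came from a probe set with several. The number of unmapped columns was 0.

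Each gene took its brightest probe set over the 30 arrays. The brightest 60% of genes (dimmest at a geometric mean of 469) were fitted on the log2 scale in limma 3.58.1 (R 4.3.3), with a mean per group over all 30 arrays and eBayes with an intensity trend. The script was tested on simulated data. Ratios were compared by exact permutation (scipy 1.17.1). Groups came from the sample titles. The genes named were, in each comparison, up to 4 called rises and 4 called falls without overlap between groups (called genes for differences of effects), with catalytic subunits, ubiquitin receptors, ATPases, activators, base chaperones and up to 2 called genes per direction and pathway list. A few genes beyond this rule (Psma1, Psmd13, Psmb3, Psmc1, Psmc2 and others) are named to complete counts. The genes and lists were chosen with earlier results of these data known. Alternatives changed scaling, filter, probe set, groups fitted, ratio, trend and single wells, and 1 chosen after seeing the data blocked on the running numbers of the titles. Promoter sequences are from RefSeq (GRCr8).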

Additional observations from a re-analysis of the deposited data

Results flagged for a closer look

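Among 204 sets of 5 wells looked at (each gene named, and the 3'/5' actin ratio, in each group), 15 had a well far from the other 4, and chance gives about 1 in 20. The well of vehicle at 24 h numbered 1 was the lowest for Psmb1 (26220, others 31289 to 32822), Psmc2 (20981, others 24895 to 26496), Psmc3 (9032, others 11214 to 12005) and Psmc5 (8556, others 10621 to 10800), and its actin ratio, 1.99, was the highest of that group. The well of 500 µM at 48 h numbered 3 was the lowest for Psma2 (15163) and Psmd6 (9099, others 11619 to 12481) and the highest for Psmd3 (5283). The well of 5000 µM at 24 h numbered 1 was the highest for Nfe2l1 (5086, others 3085 to 3520) and for the actin ratio (1.76, others 1.21 to 1.31). The others were Psmb5 at 500 µM and 48 h (27447, above 21932 to 22812), Psmc6 at 500 µM and 24 h (14997, above 11127 to 11747), Psmd2 at 5000 µM and 48 h (12832, below 14650 to 15044), Psme1 at 5000 µM and 48 h (21258, below 22205 to 22596), Pomp in vehicle at 48 h (44331, above 38656 to 39420) and Nfe2l1 in vehicle at 24 h (6289, above 4463 to 4744).

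Without vehicle well 1 at 24 h, 7 of the 38 genes were called at 5000 µM and 24 h and 12 in vehicle at 48 h against 24 h. Of all 8531 genes tested, 3099 and 2312 were called in these fits.

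The effect of 500 µM differed between 48 h and 24 h, by limma's test of that difference, for Psma1 (-0.40), Psma2 (-0.56), Psma3 (-0.29), Psma5 (-0.44), Psmb1 (-0.62), Psmb2 (-0.33), Psmb3 (-0.28), Psmc2 (-0.28), Psmc6 (-0.44), Psmd4 (-0.31), Psmd6 (-0.37), Psmd10 (-0.53), Psme1 (-0.21) and Psme2 (-0.38), all lower at 48 h. It was higher at 48 h for Psmd1 (0.38), Psmd2 (0.59), Psmd3 (0.56) and Psme4 (0.58). For 5000 µM it differed for Psma5 (-0.24), Psmb1 (-0.33), Psmd10 (-0.36), Psmd4 (-0.34) and Psmd5 (-0.37). None of these differences was called with the ratio as a covariate, and the 3'/5' ratios of vehicle and of 500 µM moved in opposite directions between the times.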

How the results depend on the processing

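With arrays centred on their medians, the genes called out of 38 numbered 0 at 500 µM and 24 h, 4 at 5000 µM and 24 h, 7 at 500 µM and 48 h, 4 at 5000 µM and 48 h, 3 and 7 for 5000 against 500 µM at 24 h and 48 h, 5 for vehicle over time, and 8 and 0 for the differences of effects of 500 and 5000 µM. Of all 8531 genes this scaling called 51, 2554, 2756, 1867, 1816, 3468, 2030, 2104 and 615 in the same order. This scaling put the all-gene median at 0.10, -0.13 and 0.12 for 500 µM against vehicle at 48 h, 5000 against 500 µM at 48 h and the 500 µM difference. With the ratio as a covariate the counts that moved were 0 at 500 µM at both times, 4 for 5000 against 500 µM at 48 h, 1 for vehicle over time and 0 for both differences. With the gap as a block they were 2 at 500 µM and 48 h, 3 for 5000 against 500 µM at 48 h, 7 for vehicle over time, and 6 and 2 for the differences. Of all 8531 genes the block fit called 484, 2021, 1190, 682 and 1135 in the same order. At 500 µM and 24 h the count of the 38 was 2 after quantile normalization, and 0 without the filter or with only the groups compared. The 5000 µM difference had 3 calls without the filter and 3 without the intensity trend, and 5000 against 500 µM at 24 h had 5 with the mean of all probe sets. No other alternative moved a count by over 1.5 times except single wells.

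Leaving out 1 well gave 0 to 1, 7 to 13, 13 to 23 and 5 to 7 calls at 500 µM and 5000 µM at 24 h and then at 48 h, 6 to 9 and 14 to 18 for 5000 against 500 µM at 24 h and 48 h, 12 to 18 for vehicle over time, and 16 to 23 and 2 to 8 for the differences of 500 and 5000 µM. The 5000 µM difference had 8 calls without 5000 µM well 1 at 24 h, 2 without 5000 µM well 3 at 24 h, and 3 without any of 8 other wells. The actin ratio at 5000 µM and 24 h differed by -0.35 to -0.50 with 1 well left out, past the threshold without 5000 µM well 1 (-0.502, adjusted p = 0.0278). The other ranges were -0.267 to -0.0769, 0.578 to 0.648 and -0.0677 to -0.0047 at 500 µM and 24 h, 500 µM and 48 h and 5000 µM and 48 h, -0.337 to -0.139 and -0.677 to -0.612 for 5000 against 500 µM, and -0.603 to -0.479 for vehicle.

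Changes that turned direction with the covariate at 500 µM and 48 h were Psmc2 (0.0771, and 0.0321 with the block), Psmd4 (0.0256), Psmd6 (0.0608), Psmd8 (0.0166) and Psmd9 (0.0439, and 0.0015 with the block). For 5000 against 500 µM at 48 h they were Psmb2 (-0.0237), Psmd4 (-0.0586, and -0.0018 with the block) and Psmd6 (-0.111), for vehicle over time Psmc2 (-0.0262) and Psmd4 (-0.0057), and for the 500 µM difference Psmc2 (0.0356) and Psmd6 (0.0940). With the mean of all probe sets they were Psme1 (0.0081) and Psme4 (-0.0035) for 5000 against 500 µM at 24 h, Zfand5 (-0.0915 there, -0.0728 for 5000 µM against vehicle) and Ecpas (0.0341 at 5000 µM and 24 h, -0.0933 at 500 µM and 48 h, 0.0680 for vehicle, -0.0426 for the 500 µM difference). The cause was not tested. Running numbers in the sample titles fall in 5 consecutive sets of 6 arrays, 1 of each group, and nothing in the labels says that a set was handled together. Same-set arrays of the groups compared had deviations from their group means that correlated at -0.32 to 0.43, over 0.1 in 20 of 35 pairs. In every comparison the mean correlation was higher for same-set arrays (0.0362 to 0.161) than for other arrays (-0.0415 to -0.0084). At 24 h the vehicle and 500 µM wells 1 to 3 lay above the gap in the ratio, and wells 4 and 5 below it. The labels name no pairing, so the sets were not taken as pairs in the main fit. The replicate block on these sets, chosen after seeing the data, gave 1, 10, 27 and 7 calls at 500 and 5000 µM at 24 h and then at 48 h, 9 and 17 for 5000 against 500 µM, 17 for vehicle over time, and 24 and 7 for the differences. It ended none of the calls of the 38 genes and added 14. Not every array correlated best with its own set in any comparison (2 to 8 of 10 did).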
